A study of Mus musculus with 11 samples.

Results

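The Abca transporter cluster of mouse chromosome 11 was examined for its contact with the nuclear lamina in oligodendrocytes (OL) and their precursors (OPC). The members were the 8 gene regions of the deposited DamID table whose symbol was Rgs9, Prkar1a, Abca8b, Abca8a, Abca9, Abca6, Abca5 or Map2k6, of 21534 regions in all. They had been chosen because they belong to a run of neighbouring regions with a lower score in OL than in OPC. The difference between OL and OPC is therefore given for the members as a description, with no p-value. Each symbol matched 1 region.

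DamID marks DNA that comes close to a chosen protein. The bacterial enzyme Dam is fused to lamin B1 (LMNB1), a filament protein of the nuclear lamina, and methylates adenine in GATC sequences nearby, while untethered Dam controls for how open the DNA is to any free enzyme. The libraries came from wild-type C57BL/6 mouse pups at postnatal day 7, whose cortical OPC were exposed for 1 day to a lentivirus for either Dam protein. The 2 groups with scores are OL Dam-LMNB1 (libraries 18, 19 and 20, then kept for 72 h in differentiation medium with the label T3) and OPC Dam-LMNB1 (libraries 8, 9 and 10, then kept for 72 h in proliferation medium with the label PF). Each score sets 1 Dam-LMNB1 library against a pool of the Dam libraries from the same medium (12, 13 and 14 for OL, 2 and 4 for OPC). The labels do not name the promoter that drove the Dam proteins, and the labels give primary OPC as the cell type of the OL libraries too. Lamina contact is not expression, so the labelled cell types could not be checked with marker genes. A score above 0 is read as more Dam-LMNB1 than Dam methylation, and its log base is not stated, so differences are given in score units. Over all regions the mean score was −0.79, −0.88 and −0.87 in OL libraries 18, 19 and 20 and −0.92, −0.94 and −0.92 in OPC libraries 8, 9 and 10, and the SD was 1.46 in OL library 18 against 1.53 to 1.59 in the other 5. Read depth is unknown.

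Lamina-associated DNA is generally poor in genes and in transcription, and genes can move to or away from the lamina as cells differentiate. ABCA proteins are membrane transporters of the ATP-binding cassette superfamily, many of which move lipids. Abca5, Abca6, Abca8a, Abca8b and Abca9 form a subgroup of close relatives that lie side by side in mammalian genomes. Human ABCA8 has been linked to sphingomyelin production in oligodendrocytes, and Abca5 encodes a transporter of lysosomes and late endosomes. Around them lie Rgs9, which encodes a GTPase-activating protein for G protein alpha subunits best known from photoreceptors and striatal neurons, Prkar1a, which encodes a regulatory subunit of protein kinase A, and Map2k6, which encodes a kinase that activates p38 MAP kinases.

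The 5 Abca regions spanned 416 kb (chr11:109931405-110347716, mm10), all on the minus strand, each 74.4 to 87.0 kb wide. A region holds the gene with its flanks, so exons, introns and UTRs share 1 value. Abca8a and Abca9 regions overlapped by 7.12 kb and Abca9 and Abca6 regions by 3.33 kb, so these neighbours share some of their reads. Abca8b was set off from Abca8a by 17.8 kb and Abca6 from Abca5 by 5.6 kb. On one side of the cluster Map2k6 (chr11:110389121-110515637, plus strand) lay 41.4 kb from Abca5. On the other side, Rgs9 (chr11:109223354-109308181, minus strand) and Prkar1a (chr11:109640920-109671663, plus strand) were separated from the cluster by Fam20a and a stretch of 199.1 kb without any region of the table.

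The promoter sequences of 5 members are shown because the members differ in CpG content, and promoters rich in CpG are typical of broadly expressed genes. RefSeq (GRCm38.p6) had promoter windows for 7 of the 8 members. Each line gives the 250 bases before the annotated start, 5′ to 3′ on the gene's strand, with every CG in capitals.
Abca8b (chr11:109995846-109996095, minus strand): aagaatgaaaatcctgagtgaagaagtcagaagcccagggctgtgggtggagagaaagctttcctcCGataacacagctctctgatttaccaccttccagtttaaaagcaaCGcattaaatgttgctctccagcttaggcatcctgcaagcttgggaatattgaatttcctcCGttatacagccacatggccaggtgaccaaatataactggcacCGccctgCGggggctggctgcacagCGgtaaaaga
Abca8a (chr11:110095938-110096187, minus strand): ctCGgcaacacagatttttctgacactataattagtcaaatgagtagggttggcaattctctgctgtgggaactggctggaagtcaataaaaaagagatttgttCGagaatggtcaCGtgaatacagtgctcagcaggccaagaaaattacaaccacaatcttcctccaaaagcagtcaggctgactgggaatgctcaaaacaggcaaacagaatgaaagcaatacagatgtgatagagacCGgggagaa
Abca9 (chr11:110168154-110168403, minus strand): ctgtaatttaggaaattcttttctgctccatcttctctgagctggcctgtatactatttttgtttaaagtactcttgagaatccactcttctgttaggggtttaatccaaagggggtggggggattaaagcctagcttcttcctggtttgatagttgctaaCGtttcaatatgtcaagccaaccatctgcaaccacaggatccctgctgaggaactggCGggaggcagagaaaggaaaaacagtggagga
Abca5 (chr11:110337717-110337966, minus strand): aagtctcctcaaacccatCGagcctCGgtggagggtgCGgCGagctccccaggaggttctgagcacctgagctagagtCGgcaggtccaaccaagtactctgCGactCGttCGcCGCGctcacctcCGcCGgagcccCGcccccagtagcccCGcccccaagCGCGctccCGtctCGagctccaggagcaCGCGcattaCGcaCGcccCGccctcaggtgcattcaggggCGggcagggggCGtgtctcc
Rgs9 (chr11:109298182-109298431, minus strand): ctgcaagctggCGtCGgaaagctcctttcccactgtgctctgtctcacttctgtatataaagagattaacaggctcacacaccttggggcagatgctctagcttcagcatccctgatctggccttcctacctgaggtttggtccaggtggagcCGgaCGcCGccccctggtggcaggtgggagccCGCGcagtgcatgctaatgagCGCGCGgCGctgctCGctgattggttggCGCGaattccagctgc

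The motif CG, which reads the same on both strands, occurred 6 times in the window of Abca8b, 4 times in Abca8a and 2 times in Abca9, against 25 times in Abca5 and 14 times in Rgs9. The median over 27025 gene windows was 6, and 91.7% of the windows held at least 1. At least 25 CG were found in 10.3% of them. Among genes with a region above 0 by the test given below the median count was 2 (3910 windows), and among those below 0 it was 14 (10887 windows). The Abca8a, Abca8b and Abca9 windows thus lay nearer to the median of the genes above 0, while Abca5 had a count that 4.42% of the windows of genes above 0 and 17.8% of those below 0 reached. Map2k6 had 3 annotated windows with 4 to 12 CG, and Prkar1a had 6 windows with 3 to 37. The medians use the farthest upstream window of each gene, which held 12 CG in Map2k6 and 3 in Prkar1a. By that window Prkar1a, the member farthest below 0, also lay nearer to the median of the genes above 0. GATC, the sequence that Dam methylates, which also reads the same on both strands, was present in the farthest upstream windows of 3 of the 7 genes, Rgs9, Abca9 and Map2k6, and in 41.9% of all windows.

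Within the cluster the 4 regions Abca6, Abca8a, Abca9 and Abca8b stood above 0 in all 6 libraries, and Abca5 did so in 5 of the 6. The score of Abca6 was 0.67, 0.72 and 0.70 in OL libraries 18, 19 and 20 and 1.266, 1.168 and 1.199 in OPC libraries 8, 9 and 10. Abca8a had 0.58, 0.65 and 0.57 in OL and 1.117, 1.067 and 1.176 in OPC. Abca9 had 0.65, 0.54 and 0.43 in OL and 1.104, 1.054 and 1.014 in OPC. In these 3 regions, the middle of the cluster, every OL library was lower than every OPC library, and the gap between the groups was wider than the range within either.

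The regions at the edges of the cluster were nearer to 0. Abca8b, at the end that faces Fam20a, had 0.54, 0.23 and 0.21 in OL libraries 18, 19 and 20 and 0.65, 0.70 and 0.75 in OPC libraries 8, 9 and 10. OL library 18 lay close to the OPC libraries, with a gap of 0.11 between the groups, which was less than the range of the OL libraries. Abca5, at the end that faces Map2k6, had 0.17, 0.05 and −0.06 in OL and 0.68, 0.64 and 0.66 in OPC. Its OL libraries lay on both sides of 0, while its OPC libraries all lay above 0 and differed little from each other.

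The 3 members outside the transporter genes lay below 0 in every library. Map2k6 had −0.60, −0.94 and −0.89 in OL libraries 18, 19 and 20 and −0.18, −0.28 and −0.12 in OPC libraries 8, 9 and 10. Rgs9 had −1.50, −1.52 and −1.62 in OL and −0.78, −0.90 and −0.85 in OPC. Prkar1a had −2.33, −2.49 and −2.65 in OL and −1.86, −1.89 and −1.62 in OPC. Here too the OL libraries were all lower than the OPC libraries. No member had all OPC libraries on one side of 0 and all OL libraries on the other.

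**Figure D1:**
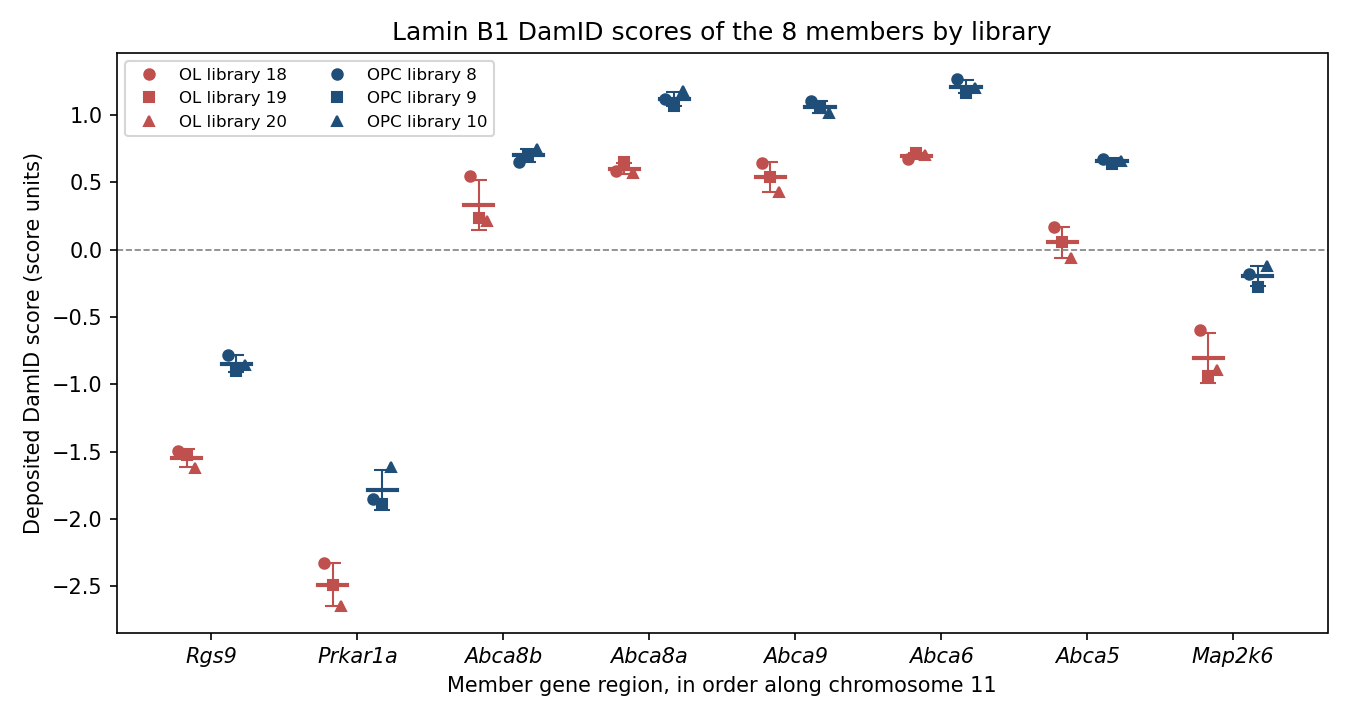
Deposited DamID scores (y axis, score units) of the 8 members in order along the chromosome (x axis). Points are libraries, OL left and OPC right at each gene, and bars are the mean ± SD (n = 3). OL libraries lie below OPC libraries at every member, the 5 Abca genes sit near or above 0 and the other 3 members below it.

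In both conditions the order of mean scores from high to low was Abca6, Abca8a, Abca9, Abca8b, Abca5, Map2k6, Rgs9 and Prkar1a. In OL the means were 0.70 ± 0.02 for Abca6, 0.60 ± 0.04 for Abca8a, 0.54 ± 0.11 for Abca9 and 0.33 ± 0.19 for Abca8b (SD, n = 3). They were 0.05 ± 0.11 for Abca5, −0.81 ± 0.18 for Map2k6, −1.55 ± 0.06 for Rgs9 and −2.49 ± 0.16 for Prkar1a. The ranges over libraries overlapped between Abca8a and Abca9 and between Abca9 and Abca8b, so the order of these neighbours in OL was within the spread. In OPC the means were 1.21 ± 0.05 for Abca6, 1.12 ± 0.05 for Abca8a, 1.06 ± 0.04 for Abca9 and 0.70 ± 0.05 for Abca8b. They were 0.66 ± 0.02 for Abca5, −0.20 ± 0.08 for Map2k6, −0.85 ± 0.06 for Rgs9 and −1.79 ± 0.15 for Prkar1a. In OPC the ranges overlapped between Abca6 and Abca8a, between Abca8a and Abca9 and between Abca8b and Abca5.

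The choice of members used the difference between conditions and not the average of the OL mean and the OPC mean. With 3 libraries in each condition, and if both conditions vary alike, the errors of this average and of the difference are uncorrelated. In Abca5 the SD was 0.11 in OL and 0.02 in OPC, and in Abca6 0.02 in OL and 0.05 in OPC. SDs of 3 libraries cannot settle whether both conditions vary alike, so the average is not shown to be free of the choice. It was tested against 0 with limma across all regions. Above 0 were 26.0% of all regions and below 0 were 71.8% (adjusted p under 0.05, Benjamini-Hochberg), and on chromosome 11, which has 1681 regions, 11.2% were above 0. All 5 Abca members were above 0 and the other 3 members below 0. Nearly all regions passed on either side, so a pass by itself says little about a member. The p-values that follow are given as description. The average was 0.95 for Abca6 (SE 0.03, limma adjusted p = 2.11e-10), a level that 17.7% of all regions exceeded. It was 0.86 for Abca8a (adjusted p = 6.29e-10), 0.80 for Abca9 (3.7e-09), 0.52 for Abca8b (1.33e-06) and 0.36 for Abca5 (4.41e-06, limma). All 6 libraries lay above 0 in each of them except Abca5, with 5 of 6. The average was −0.50 for Map2k6 (adjusted p = 2.52e-06), −1.197 for Rgs9 (1.39e-10) and −2.14 for Prkar1a (2.78e-11, limma), with 6 of 6 libraries below 0 in each. All scores of a condition share their pooled Dam libraries, so no p-value here covers how Dam libraries vary. Nothing in the labels tells separate cultures from repeat libraries, so p-values reflect the spread among these 6 libraries, possibly a technical one.

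The OL minus OPC difference, which chose the members, ranged from −0.70 to −0.37 with a median of −0.56, against a median of 0.10 over all regions and 0.12 over chromosome 11. With library means and SDs made equal the median was −0.58 for the members and 0.02 for all regions. It was −0.70 (SE 0.11) for Prkar1a, −0.70 (SE 0.08) for Rgs9, −0.61 (SE 0.10) for Map2k6 and −0.60 (SE 0.08) for Abca5. It was −0.52 (SE 0.07) for Abca8a, −0.52 (SE 0.08) for Abca9, −0.51 (SE 0.06) for Abca6 and −0.37 (SE 0.09) for Abca8b. The differences of the 3 central Abca regions lay within 0.01 of each other, although their regions overlap in part and are not independent. For Abca8b, the smallest difference, the value was −0.48 without OL library 18, −0.32 without OL library 19 and −0.31 without OL library 20. OL library 18 was the highest OL library in 6 of the 8 members and had the smallest SD over all regions. In all 8 members the OL libraries lay below the OPC libraries, as they did in 15.4% of all regions. That count follows from the choice of the members.

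The lower scores covered genes of other kinds as well. Between Rgs9 and Map2k6, a stretch of 1.29 Mb, the table had 6 further regions. In all 14 the OL libraries lay below the OPC libraries, as in 15.4% of all regions. The stretch was chosen as a run of regions lower in OL, so nothing is read from that count. The further regions had averages below 0 and differences from −1.06 to −0.32. Fam20a, which encodes a pseudokinase of the secretory pathway needed for enamel formation, had the largest difference of the stretch, with −1.33 ± 0.01 in OL and −0.27 ± 0.05 in OPC (SD, n = 3, difference −1.06). Arsg, the gene of a lysosomal sulfatase, had −1.37 ± 0.13 in OL and −0.71 ± 0.07 in OPC (difference −0.66). Slc16a6, of the monocarboxylate transporter family, had −1.87 ± 0.15 and −1.42 ± 0.12 in OL and OPC. Gna13, the gene of a G protein alpha subunit, had −2.37 ± 0.04 in OL and −1.97 ± 0.05 in OPC. The autophagy gene Wipi1 had −1.89 ± 0.16 in OL and −1.55 ± 0.06 in OPC. The metalloprotease gene Amz2 had −2.15 ± 0.20 in OL and −1.83 ± 0.03 in OPC, with the smallest difference, −0.32. Thus Prkar1a (−2.49 in OL, −1.79 in OPC) and Fam20a (−1.33 in OL, −0.27 in OPC), whose regions overlap by 0.78 kb, differed by more than 1 score unit in level within each condition.

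**Figure D2:**
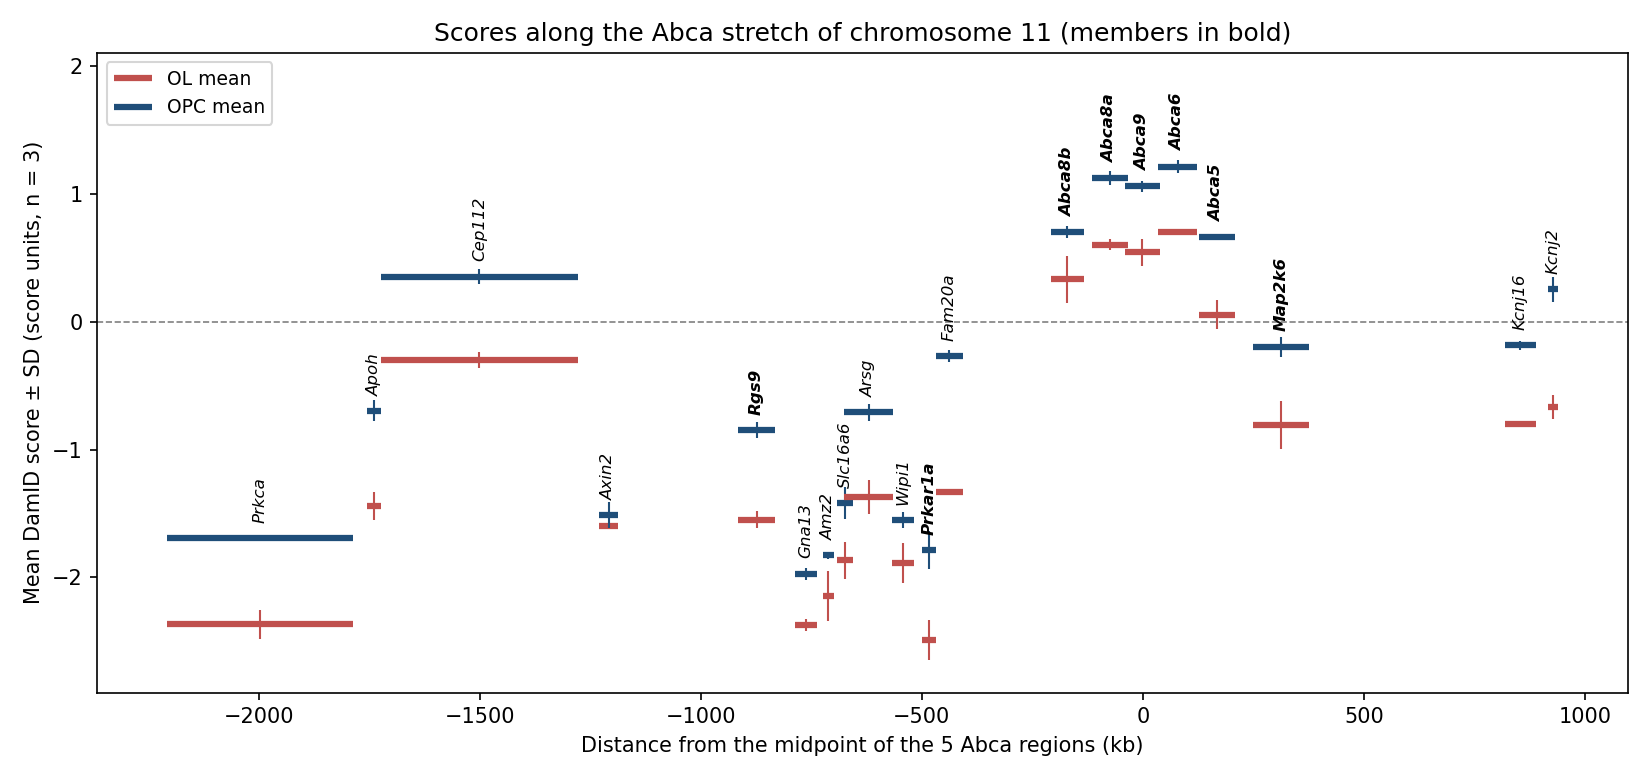
Mean DamID score ± SD (y axis, score units, n = 3) of the 20 regions within 1 Mb of the members, drawn as bars over their extent, with OL in red and OPC in blue (x axis, kb from the midpoint of the 5 Abca regions). The Abca regions lie above 0 between Fam20a and Map2k6, which lie below 0 in both conditions. Farther out, the OPC bars of Cep112 and Kcnj2 also lie above 0. The OL bar lies below the OPC bar at every region, with the smallest gap at Axin2.

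Beyond Map2k6 the run went on across 442.4 kb without a region to a pair of inward rectifier potassium channel genes. Kcnj16 had −0.80 ± 0.02 in OL and −0.18 ± 0.04 in OPC (SD, n = 3). Kcnj2 had −0.67 ± 0.10 in OL and 0.25 ± 0.10 in OPC, with all OL libraries below 0 and all OPC libraries above it. As consecutive regions that pass the limma call for a lower score in OL, the run from Rgs9 to Kcnj2 (chr11:109223354-111078825) held 16 regions over 1855 kb. By number of regions 1 of the 1381 such runs of the genome was longer, a run of 17 regions on chromosome 9 (chr9:92240193-96325646, from Plscr1 to Tfdp2), and the next in order had 12 regions. By the count of consecutive regions in which all OL libraries lay below all OPC libraries, the run again held 16 regions and 3 of 1845 runs were longer. The run was chosen by the same difference that defines these runs, so its rank is a description that supports nothing, and runs counted in regions favour stretches dense in genes.

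The regions just inside and just outside the run mark its edges. Rgs9, the first inside, had a difference of −0.70, and Axin2, a scaffold gene of Wnt signalling and the first outside, had −0.08, with −1.60 ± 0.02 in OL and −1.51 ± 0.10 in OPC (SD, n = 3) across a gap of 270.6 kb. At the other end Kcnj2 had −0.92, and the next region, that of the transcription factor gene Sox9, 1693.4 kb away, had a difference of 0.38 with −1.17 ± 0.15 in OL and −1.55 ± 0.34 in OPC. Past Axin2 lower scores in OL were seen again. The centrosomal gene Cep112 had −0.30 ± 0.06 in OL and 0.35 ± 0.06 in OPC. Like Kcnj2, it had all OL libraries below 0 and all OPC libraries above it. Apoh, the gene of apolipoprotein H, had −1.44 ± 0.11 and −0.70 ± 0.08 in OL and OPC, and Prkca, the gene of protein kinase C alpha, had −2.37 ± 0.12 in OL and −1.69 ± 0.02 in OPC. Of the 12 regions within 1 Mb of the members that are not members, 11 passed the limma call for a lower score in OL, as did 10.9% of all regions. These regions adjoin the members and the stretch was chosen by the same difference, so nothing is read from the count.

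Among regions farther than 1 Mb from the members, those with the most similar scores to the median profile of the 5 Abca members were found by Euclidean distance over the 6 libraries. The nearest was Aadat on chromosome 8, the gene of an aminotransferase, at a distance of 0.146 score units, with 0.59 ± 0.08 in OL and 1.09 ± 0.07 in OPC (SD, n = 3). Next were Nebl on chromosome 2 (distance 0.157), Scgb3a2 on chromosome 18 (0.190), Ces1f on chromosome 8 (0.205) and Elp4 on chromosome 2 (0.207). Their OL means lay between 0.45 and 0.59 and their OPC means between 0.98 and 1.09.

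Relatives of the member genes on other loci, which the choice of members did not use, moved in both directions. Their lists were, however, chosen with earlier results of these data known. Of 71 such genes in 5 lists, 23 rose and 11 fell in OL (limma, adjusted p under 0.05), 23.0% and 10.9% of all regions having done so, with a median difference of 0.15 against 0.10 over all regions. The shares of 23.0% and 10.9% are also the background for the count of each list below in this fit to all 6 libraries. With library means and SDs made equal, 18 rose and 14 fell, against 3330 and 3261 of all 21534 regions. The medians were then 0.05 for the related genes and 0.02 for all regions. In that scaling 50.5% of all calls were higher in OL, against 67.9% of the calls on the deposited scores. By the adjusted p-value of the authors' deposited table, 6 of the related genes rose and 2 fell, namely 5 transporter genes of the other ABC subfamilies that rose, 1 protein kinase A gene in each direction and 1 R7 RGS gene that fell.

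Of 11 ABCA genes outside the cluster, 3 rose and 3 fell, with a median difference of 0.02. In the authors' deposited table the adjusted p-value was under 0.05 for 0 of the 11, the lowest being 0.0501 for Abca1 and 0.0537 for Abca12. It was so for few of all 21534 regions (412 higher and 264 lower). Abca1, whose product exports cholesterol and phospholipid to apolipoproteins, fell to −1.74 ± 0.13 in OL, against −0.86 ± 0.07 in OPC (SD, n = 3, difference −0.88, limma adjusted p = 3.86e-04). Abca12, a lipid transporter gene of the skin barrier, rose to 1.21 ± 0.09 in OL, against 0.56 ± 0.04 in OPC (difference 0.65, limma adjusted p = 5.41e-04). Abca7, a relative of Abca1, rose by 0.45 (limma adjusted p = 4.85e-03), and Abca2, a lysosomal transporter gene abundant in oligodendrocytes, rose to −1.201 ± 0.11 in OL, against −1.57 ± 0.09 in OPC (limma adjusted p = 0.0125). Abca4, the retinoid transporter gene of photoreceptors, fell by 0.31 (limma adjusted p = 0.0142, 0.0521 without OPC library 8). Abca15 fell by 0.22 (limma adjusted p = 0.0296), a call that was lost on leaving out any of 5 of the 6 libraries, all but OL library 18, with adjusted p up to 0.0952, and with quantile normalization (0.0516). Abca15 lies in a second tandem group of ABCA genes on chromosome 7 with Abca14 and Abca16. That group stood farther above 0, with 1.50 ± 0.03, 1.92 ± 0.04 and 1.98 ± 0.07 in OL and 1.59 ± 0.02, 2.14 ± 0.02 and 2.18 ± 0.03 in OPC for Abca14, Abca15 and Abca16. Abca14 (difference −0.09, limma adjusted p = 0.298) and Abca16 (−0.20, limma adjusted p = 0.0559) did not pass the test. Still, in each of Abca14, Abca15 and Abca16 every OL library lay below every OPC library, as in 15.4% of all regions. The Abca15 region overlaps in part with those of Abca14 and Abca16, so the values of these neighbours are not independent. Abca13, on chromosome 11 but away from the cluster, had 1.83 ± 0.07 in OL and 1.81 ± 0.02 in OPC (limma adjusted p = 0.849).

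Among 33 genes of the other ABC subfamilies, not all of them transporter genes, 11 rose and 5 fell (median difference 0.16). The largest differences were those of Abcf2 (0.71, limma adjusted p = 1.76e-03) and Abcf3 (0.62, limma adjusted p = 1.25e-03), both of an ABC subfamily without membrane domains. Abce1, a ribosome recycling factor gene, rose by 0.52, Abcb6 by 0.37 and the bile salt export pump gene Abcb11 by 0.32. Without OPC library 9, 0 of these 33 genes fell by the adjusted p of limma, against 1673 of all 21534 regions. In the same fit 5 of the 33 were lower at an unadjusted p under 0.05. Without OPC library 8, OPC library 10, OL library 19 or OL library 20, 2 fell, against 1733 to 1788 of all regions.

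Of 8 further protein kinase A genes, 3 rose and 2 fell (median difference 0.06). Prkar1b, the closest relative of Prkar1a, fell to −1.76 ± 0.04 in OL, against −1.36 ± 0.05 in OPC (difference −0.40, limma adjusted p = 5.19e-03). The inhibitor gene Pkia rose by 0.29 (limma adjusted p = 9.48e-03). The calls of Pkib (0.25), Pkig (−0.28) and Prkar2b (0.26) were each lost on leaving out 3 or 4 of the 6 libraries, with adjusted p up to 0.0888, 0.098 and 0.117 (limma). Pkib lost its call without OL library 20, OPC library 9 or OPC library 10, Pkig without OL library 19 or 20 or OPC library 8 or 9, and Prkar2b without OL library 18 or 20 or OPC library 9 or 10.

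Of 6 genes of the R7 family of RGS proteins and their partners, to which Rgs9 belongs, 2 rose and 1 fell. Rgs6 fell to −1.88 ± 0.05 in OL, against −1.198 ± 0.04 in OPC (SD, n = 3, difference −0.68, limma adjusted p = 5.6e-04), and each OL library lay below each OPC library. Rgs9bp, the gene of the membrane anchor of Rgs9, rose by 0.47 and Rgs11 by 0.39 (limma adjusted p = 0.0163 and 0.0136). Both calls were lost with library means and SDs made equal (0.0957 and 0.0565) and with quantile normalization (0.124 and 0.0754). Of 13 p38 pathway genes, 4 rose and 0 fell (limma), with a median difference of 0.23. Of all regions 23.0% rose and 10.9% fell, so with 13 genes nothing is read from these counts. At an unadjusted p under 0.05, by limma or in the authors' deposited table, 0 were lower too, while 1 fell with quantile normalization. Map3k7, a kinase gene upstream of the MAP kinase kinases, rose by 0.57 (limma adjusted p = 7.94e-03), Mapk12, a p38 gene, by 0.41 and Map3k5 by 0.31. Map2k3, the other main p38 activator beside Map2k6, rose to −2.10 ± 0.12 in OL, against −2.44 ± 0.08 in OPC (limma adjusted p = 0.0227). That call was lost without OPC library 9 or 10 (adjusted p up to 0.0819) and under both scalings (0.0541 and 0.0709).

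**Figure D3:**
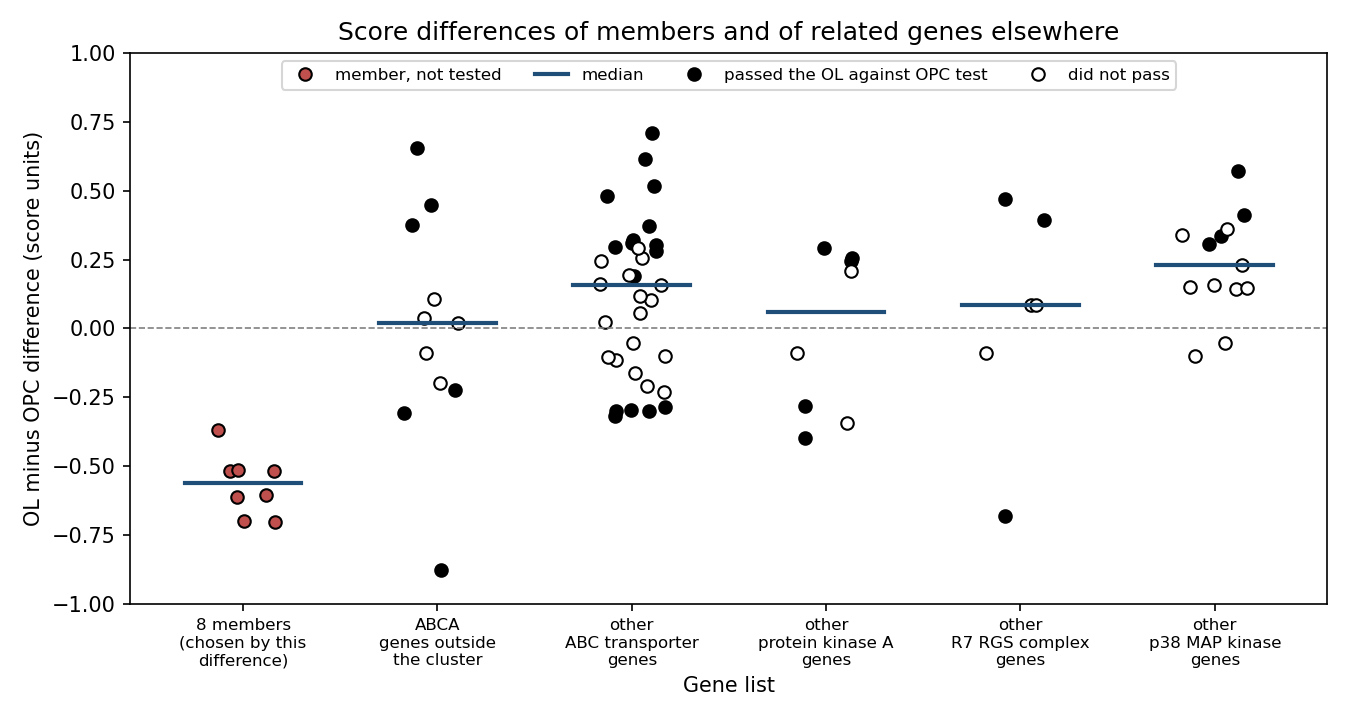
OL minus OPC score difference (y axis, score units) of the 8 members and of 71 related genes in 5 lists (x axis), with horizontal lines at the medians. The members lie between −0.70 and −0.37 because this difference chose them, whereas the related genes spread on both sides of 0, from −0.88 for Abca1 to 0.71 for Abcf2.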

How the data were processed

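Each of the 8 members, and every other gene region, has a DamID score that the authors deposited for each of the 6 Dam-LMNB1 libraries, 1 score per library, with the Dam libraries of the same condition pooled as its control, per the file headers. The submitters' processing notes name the build mm10, the trimmer cutadapt (1.9.1) and the aligner BWA (0.7.17); the step from reads to scores is not given in those notes or the file. A p-value and an adjusted p-value of the authors stand beside each region in the deposited table, and in 100.0% of regions the unadjusted value lies within 0.5% of a Welch test. Libraries were grouped by their titles. limma 3.58.1 (R 4.3.3) was fitted to the scores as deposited, over 21534 regions and 6 libraries, with a mean for each condition and a trend of the variance with the score (total degrees of freedom 9.42). The fit, tested on simulated data, gave OL minus OPC and the average of both conditions against 0, both two-sided and adjusted over all regions by Benjamini-Hochberg, with calls at 0.05. Alternatives were equal mean and SD, quantile normalization, no variance trend, the 19343 protein-coding regions only, the authors' adjusted p-value and each library left out. Named were the members, every region between them, the up to 6 largest passing differences per list of relatives and the 5 most similar profiles, except 1 gene that is not reported here. Other names (regions at the edges of the run, relatives that did not pass) were chosen after their values were seen. The members and lists were chosen with earlier results of these data known. Promoter windows came from RefSeq (GRCm38.p6). Depth and counting error are unknown, and Dam libraries were not analysed here on their own.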

Additional observations from a re-analysis of the deposited data

How the results depend on the processing

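The levels of the 8 members over both conditions kept their side of 0 and their call in all 80 recomputations. Their OL minus OPC differences kept their sign in all 80. These sides and signs were largely fixed in advance. Leaving out a library could not turn a difference, since every OL library lay below every OPC library in each member. Nor could it move a level across 0. Even in Abca5, whose libraries lay on both sides, the level was 0.33 to 0.38 with any library left out. Without the variance trend, or with protein-coding regions only, levels and differences stay the same by construction. The difference of Rgs9 was −0.79 with equal mean and SD, a move larger than its spread between libraries. Leaving out each library in turn gave medians of −0.62 to −0.53 for the differences of the 8 members, −0.53 to −0.49 for those of the 5 Abca members and 0.77 to 0.83 for the level of the Abca members. Without 1 library, 5560 to 5616 regions were above 0 and 15393 to 15514 below, 3136 to 4132 were higher and 1673 to 2552 lower in OL, and of the related genes 19 to 22 rose and 4 to 12 fell. The count of higher regions was lowest, 3136, without OPC library 9, and the count of related genes that fell was 4 without OPC library 9, 5 without OPC library 8, 6 without OL library 19 or 20 and 7 without OPC library 10. By the authors' adjusted p-value 412 regions were higher and 264 lower, and 6 related genes rose and 2 fell, which ended 18 of the 24 named calls of related genes. That adjustment rests on a test of each region alone. Under the 2 scalings or with a library left out, 8 of these 24 calls were lost. The cause of these changes was not tested. No paired analysis was possible because the OL and OPC libraries share no replicate numbers. Read depth is unknown, so the precision behind each score could not be given.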
